A study of Drosophila melanogaster with 5 samples.

Results

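Zw5 (zeste-white 5) is a Drosophila zinc-finger protein that binds DNA at chromatin boundaries, and the sites described here are the 223 intervals on chromosome arms 2L, 2R, 3L and 3R where a Zw5 peak overlapped no peak of Pita or ZIPIC. They were selected on the authors' peak calls against input DNA: a Zw5 interval was kept when it shared not a single base with any Pita or ZIPIC interval. The rule kept 223 of the 560 Zw5 intervals on these arms (39.8%, Wilson 95% interval 35.8 to 43.9), out of 695 Zw5 intervals in all. Of the other 337, 192 overlapped Pita, 97 overlapped ZIPIC and 48 overlapped both.

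Insulator or architectural proteins mark places where one stretch of chromatin is kept apart from the next, and an insulator between an enhancer and a promoter blocks their contact. Zw5 became known as the protein that binds scs, one of the boundary elements beside the Hsp70 heat shock genes. Pita and ZIPIC are other zinc-finger proteins of this kind, and like Zw5 they carry the amino-terminal zinc-finger-associated domain (ZAD) through which such proteins can pair.

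The data are ChIP-seq of wild-type Oregon-R embryos, with no transgene, mutation or treatment in any group. Embryos came from a 12 h collection at 25 degrees and were fixed for 15 min in 1.8% formaldehyde, so whole embryos of mixed age and all their tissues went into each library. A site bound weakly in all cells and a site bound in few cells cannot be told apart. The 5 libraries are precipitates with rabbit antibodies against Zw5 (residues 98 to 302), Pita (550 to 683) and ZIPIC (84 to 257), a precipitate with preimmune rabbit serum, and input DNA. The control precipitate is preimmune serum by its sample label, while the protocol text names rabbit IgG, and the label's term is used here. Each protein has 1 library, so no value below has a replicate error and no difference was tested. Every Wilson or Poisson interval covers counting error only.

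Depth differed between the lists that define the sites. The fold of an interval is the authors' enrichment at its summit over the local background, and with the p-value it gives the pileup, the number of fragments stacked there. The most common background solved at listed summits was 10.3 fragments for Zw5, 9.18 for Pita and 1.06 for ZIPIC. Coverage away from peaks was not read. The lowest listed Pita interval had 24 fragments and the lowest listed ZIPIC interval 8, with the lowest folds at 2.15 and 3.94. A site of Zw5 alone is therefore one where the other proteins were not called at this depth. It is not shown to lack them, least of all ZIPIC, whose list had the lowest background and pileups. The peak names carry the letter A for Zw5 and Pita and B for ZIPIC. If these letters mark different chromatin preparations, preparation and protein cannot be told apart for ZIPIC.

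The sites of Zw5 alone were mostly of low or of high fold, with fewer between. Their folds over input ran from 2.28 to 36.8, with a median of 17.7, a lower quartile of 4.28 and an upper quartile of 24.6. Of the 223, 55 were under 4-fold, 4 were between 4 and 5-fold, 21 were from 5 to 10-fold, and 143 (64.1%, 57.6 to 70.1) were at 10-fold or more. The range between was thinly but continuously filled, with 11 sites from 5 to 7.5-fold and 10 from 7.5 to 10-fold. Over all 560 autosomal Zw5 intervals 30.5% reached 10-fold, and among the 337 shared with Pita or ZIPIC 28 did (8.31%, 5.81 to 11.7). The shared intervals were mostly low, with a median of 4.06 and quartiles of 3.36 and 5.70, and a few reached up to 34.4-fold. By partner that median was 3.94 with Pita, 4.09 with ZIPIC and 4.27 with both. The fold comes from the calls that chose the sites, so these values describe them and are no test.

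**Figure D1:**
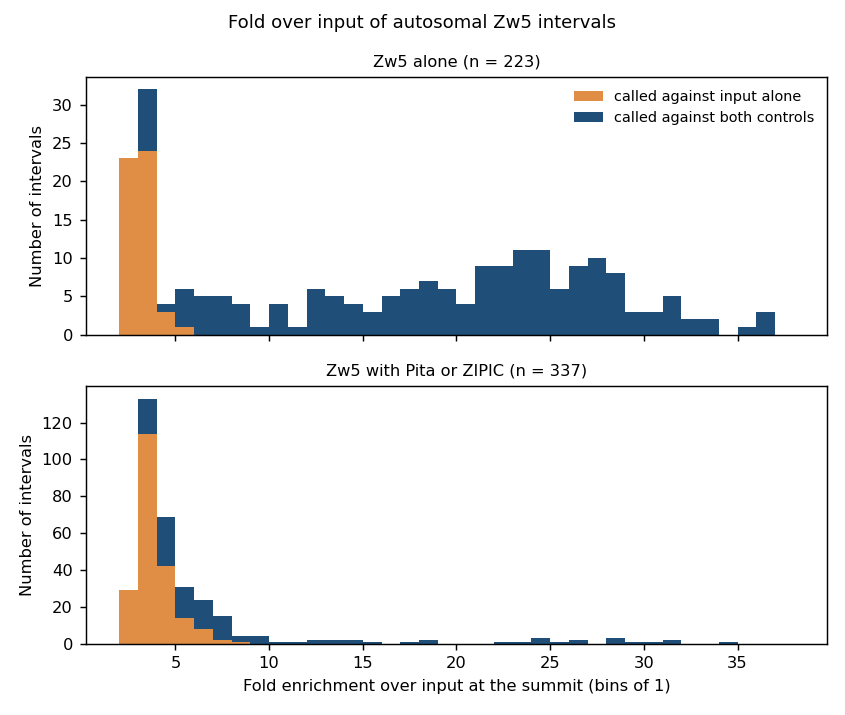
Number of autosomal Zw5 intervals (vertical axis) by fold over input at the summit (horizontal axis, bins of 1), for Zw5 alone above and for Zw5 with Pita or ZIPIC below, stacked by whether the interval was also called against preimmune serum. The vertical scales differ. The upper panel has 55 intervals under 4-fold, 4 between 4 and 5-fold, 21 from 5 to 10-fold and 143 at 10-fold or more. The lower panel has 28 at 10-fold or more.

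Read from the other side, most high autosomal Zw5 intervals overlapped no called Pita or ZIPIC interval. Of the 171 intervals of 10-fold or more, 143 overlapped neither Pita nor ZIPIC (83.6%, 77.4 to 88.4). The share was 42 of 50 among the highest 50 and 128 of 150 among the highest 150. It fell to 5.48% (4 of 73, 2.15 to 13.3) between 4 and 5-fold. Below that it was higher again, at 19.4% (32 of 165, 14.1 to 26.1) from 3 to 4-fold and 44.2% (23 of 52, 31.6 to 57.7) under 3-fold. The intervals from 4 to 7.5-fold were thus mostly shared, with 15 of 147 held by Zw5 alone.

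**Figure D2:**
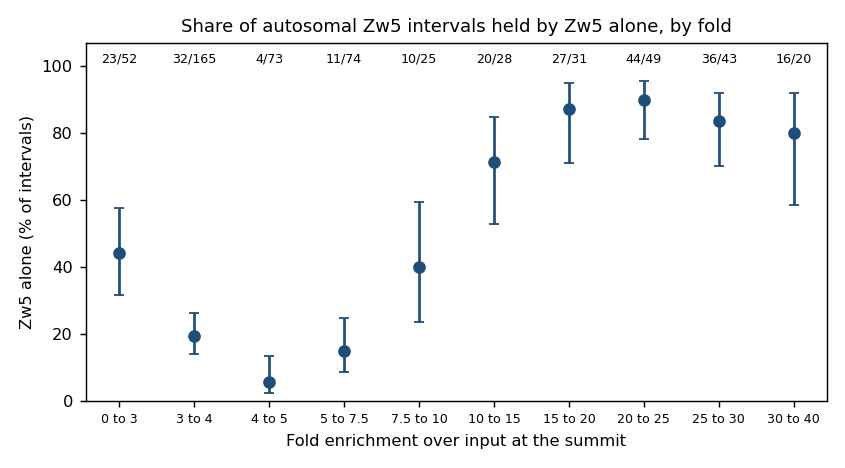
Share of autosomal Zw5 intervals that overlap no Pita or ZIPIC interval (vertical axis, percent, with Wilson 95% intervals) in bins of fold over input (horizontal axis). Numbers above the points are intervals of Zw5 alone over all intervals in the bin. The share is lowest at 5.48% between 4 and 5-fold and is 71.4% or more in each bin from 10-fold up.

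The highest sites of Zw5 alone had pileups far above their backgrounds. The first, 2L 4187230 to 4188268 (dm3), had 36.8-fold enrichment over input with a pileup of 415 on a background of 10.3, and 34.2-fold over preimmune serum. It stood by itself, with the nearest other Zw5-alone summit 757720 bp away and the nearest Pita interval 81763 bp away. The second, 3R 3951694 to 3952608, had folds of 36.5 and 20.6 against input and preimmune serum. Its surroundings differed: a ZIPIC interval lay 3237 bp away and a Zw5 interval shared with ZIPIC (8.55-fold) 3325 bp away. The third, 3R 4557007 to 4558042, had folds of 36.2 and 18.4 and belonged to a group of 4 sites described below. At 3L 11054052 to 11056153, the widest site of all with 2102 bp, the folds were 35.5 and 19.8, and a Pita interval lay 1666 bp away. These 4 shared pileups of 414 to 454 but not their neighbourhood. Then followed 2L 7026749 to 7027738 with 33.9-fold, 2L 8307742 to 8308694 with 33.4-fold and 3R 13630549 to 13631451 with 32.9-fold over input. The last of the first 10 were 2L 18695105 to 18696288 with 32.7-fold, 2L 11987758 to 11988796 with 31.9-fold and 3L 2781750 to 2782669 with 31.6-fold. On 2R the first was 2R 17556974 to 17558005, with folds of 30.7 and 22.3 over the respective controls. The highest pileup of any site, 470 fragments (exact Poisson 95% interval 428 to 514), was at 3R 13630549 to 13631451, and the lowest pileup was 27 (17.8 to 39.3). Sites within 10% of 470 numbered 19, and the upper quartile of the 223 pileups was 383. Whether counts near the top had an upper limit was not tested. Rank by fold also follows the background: 2L 4949504 to 4950113, with 396 fragments on a background of 23.1, was 16.4-fold over input.

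Higher sites were also wider. The median width was 300 bp under 5-fold, 444 bp from 5 to 10-fold, 694 bp from 10 to 20-fold, 853.5 bp from 20 to 30-fold and 1023.5 bp from 30-fold up. A peak caller draws a wider interval around a higher summit of the same shape, and how far this accounts for the widths was not tested. Summits lay near the middle of the intervals, at a median of 0.502 of the width and with quartiles of 0.436 and 0.570. Over 1 kb wide were 31 of the 223 (13.9%, 9.97 to 19.1), against 5 of the 337 shared intervals (1.48%, 0.635 to 3.43). These shares are not matched for fold, since 143 of the 223 but only 28 of the 337 reached 10-fold. They therefore do not show a width particular to sites of Zw5 alone.

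The preimmune list, which the choice of sites did not use, held nearly all sites of higher fold and few of the low ones. It held 172 of the 223 (77.1%, 71.2 to 82.2), against 53.4% of all autosomal Zw5 intervals and 127 of the 337 shared ones (37.7%, 32.7 to 43.0). By partner the shared ones differed, with 53 of 192 for Pita (27.6%, 21.8 to 34.3), 54 of 97 for ZIPIC (55.7%, 45.8 to 65.2) and 20 of 48 for both (41.7%, 28.8 to 55.7). All 143 sites of 10-fold or more over input were in it (100%, 97.4 to 100), as were 20 of 21 from 5 to 10-fold and 9 of 59 under 5-fold (15.3%, 8.24 to 26.5). Among shared intervals the same bands gave 28 of 28 from 10-fold up, 53 of 78 from 5 to 10-fold (67.9%, 57.0 to 77.3) and 46 of 231 under 5-fold (19.9%, 15.3 to 25.5). The counts stand furthest apart from 5 to 10-fold, and that difference was not tested. The Zw5 precipitate is the same in both calls, so the lists are not independent of each other. A site with more Zw5 fragments is more readily called in both, so the split by fold is a description only.

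The preimmune call rested on fewer fragments than the input call. The factor between the calls came from 165 summits that had only 1 solution and lay on the same base in both Zw5 lists. There the pileup in the preimmune call was 0.525 times that in the input call, within 0.1% each time. With that factor the pileups came out as whole fragments in all 282 of the 355 preimmune-list intervals that had only 1 solution. The 165 that set the factor are among these 282. For the intervals with more than 1 solution, that nearest to a whole number was taken, so their whole pileups say nothing about the factor. The lowest background of the preimmune call at the sites was 5.40 fragments, in place of 10.3. Sites called against both controls had at least 46 fragments, and the 51 called against input alone had 27 to 68, with a median of 40 (28.6 to 54.5). Whether those 51 would be called with a deeper preimmune library was not tested.

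Among the 51 sites called against input alone the folds over input were low and close together. Their median was 3.05, their quartiles 2.75 and 3.31, and their median width 295 bp. The highest was 2R 17534056 to 17534475, at 5.33-fold with 68 fragments, and it lay 617 bp from a Pita interval. The next were 3L 22871684 to 22872089 with 4.45-fold, 3L 2171041 to 2171503 with 4.34-fold, 3L 13995881 to 13996229 with 4.23-fold and 2R 14260087 to 14260410 with 3.98-fold. On the other side of the division, the lowest sites called against both controls were 2R 2810666 to 2810983 (3.08 over input, 5.84 over preimmune serum), 3R 17859911 to 17860242 (3.21 and 3.93) and 3R 12199836 to 12200113 (3.46 and 4.17). The input background under the first of these was 24.0 fragments, above the median of 13.6 over all 223, while its preimmune background was 11.4 on the same scale.

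Where both controls gave a call, the position agreed closely and the fold less so. The summit was at the same base in 104 of 172 sites (60.5%, 53.0 to 67.5) and within 20 bp in 170. Fold over preimmune serum was the lower of the pair in 118 of 172 (68.6%, 61.3 to 75.1), and the ratio of the input to the preimmune fold had a median of 1.17, with quartiles of 0.979 and 1.47. Each fold is the pileup plus 1 over the background plus 1, and the preimmune call used the pileup times 0.525. The added 1 thus lowers the preimmune fold even at equal backgrounds, as at 2L 4187230 to 4188268, with 10.3 in both on the same scale. On that scale the ratio of the preimmune to the input background had a median of 1.12, with quartiles of 0.915 and 1.44. How many of the 118 the added 1 accounts for was not tested. For shared intervals called against both controls the ratio of the folds had a median of 1.15 with quartiles of 0.951 and 1.52. By partner that median was 1.43 with Pita (n = 53), 1.04 with ZIPIC (n = 54) and 1.10 with both (n = 20). The background behind a preimmune fold was a median of 8 preimmune fragments, a count with an exact Poisson interval of 3.45 to 15.8, so single ratios are imprecise. Against preimmune serum the highest fold was 35.4, at 3R 13630549 to 13631451, and the second was the 34.2 of 2L 4187230 to 4188268. After them came 3R 17861177 to 17861880 with 33.0, 2L 4949504 to 4950113 with 32.6 and 3R 18192570 to 18193449 with 31.5. Of these, 2L 4949504 to 4950113 was 16.4-fold over input, where the input background was 23.1 fragments.

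**Figure D3:**
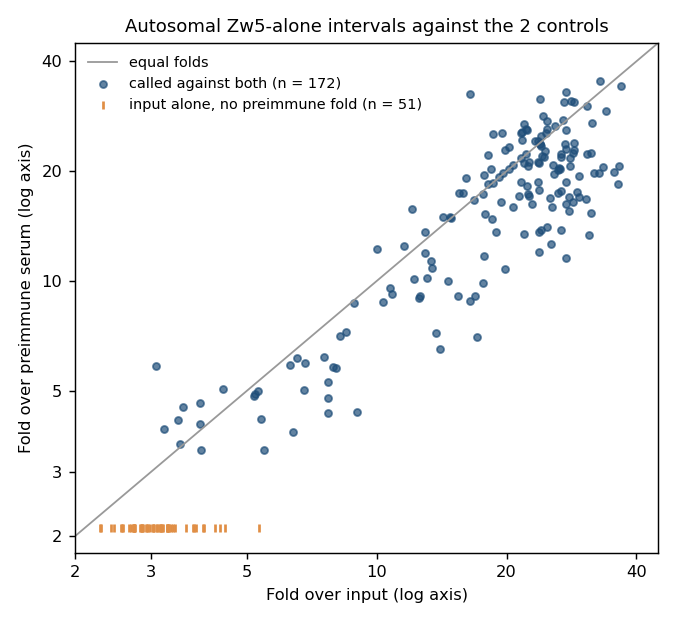
Fold over preimmune serum (vertical, log axis) against fold over input (horizontal, log axis) for the sites of Zw5 alone. Points are the 172 sites called against both controls, the line marks equal folds, and ticks near the lower edge are the 51 sites called against input alone, placed by fold over input only. The ticks end at 5.33-fold and most points, 118 of 172, lie below the line.

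Some sites of Zw5 alone came in close company, and most of these were called against both controls. Another such summit lay within 5 kb of 66 of the 223 (29.6%, 24.0 to 35.9). For the sites called against both controls it was 63 of 172 (36.6%, 29.8 to 44.0), and for those called against input alone 3 of 51 (5.88%, 2.02 to 15.9). Over all 560 autosomal Zw5 intervals another Zw5 summit was that near for 131 (23.4%, 20.1 to 27.1). That share counts any Zw5 summit as a neighbour and includes the 223 themselves, so it is not a like measure. Among the 337 shared intervals, a larger set, another shared summit was as near for 30 (8.90%, 6.31 to 12.4). The 2 sets are not matched for fold, since 143 of the 223 but only 28 of the 337 reached 10-fold. Chaining summits with gaps of at most 5 kb gave 157 single sites, 21 pairs, 4 groups of 3 and 3 groups of 4. Within pairs and groups, neighbouring summits were a median of 2401 bp apart, with quartiles of 1668 and 3259 bp. All 24 sites in groups of 3 or more and 39 of the 42 in pairs were called against both controls, against 109 of the 157 single sites (69.4%, 61.8 to 76.1). Their median fold over input was 17.1 in the groups, 23.7 in pairs and 14.0 for single sites.

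The 3 groups of 4 spanned 5959 to 9753 bp from first to last summit. On 3L the group ran from 5129067 to 5139528, with folds over input of 19.6, 18.6, 7.55 and 26.8 in order along the arm, and a Zw5 interval shared with Pita (34.4-fold) followed 5734 bp further on. On 3R the group from 4548603 to 4558042 had folds of 17.7, 20.8, 10.4 and 36.2, and no Pita or ZIPIC interval came within 41896 bp of it. The second group of 4 on 3R, from 21877594 to 21884235, had folds of 27.9, 16.5, 19.7 and 12.2. A ZIPIC interval lay 773 bp beyond it, at a Zw5 interval of 3.77-fold. The lowest fold in these 12 sites was 7.55, so none of them was under 5-fold.

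The groups of 3 lay on 2L, 2R and 3R. On 2R, from 4809772 to 4815892, the folds over input were 21.7, 22.2 and 13.4. On 3R, from 4166496 to 4173595, they were 25.9, 15.5 and 13.1, and at 11171624 to 11177117 they were 13.4, 27.5 and 11.6. On 2L, from 12002813 to 12007889, they were 12.9, 3.50 and 13.7, the middle site being a low summit 570 bp from the first, the shortest distance between any summits of the set. Among the 21 pairs, 15 had both sites at 10-fold or more and 4 joined a high site to one under 5-fold. Such an unequal pair was 2R 16883397 to 16884703, with folds of 26.5 and 2.58 at summits 848 bp apart. Even pairs included 3L 2780501 to 2782669 (25.6 and 31.6, summits 1342 bp apart) and 3R 15853391 to 15857882 (28.7 and 26.7, 3272 bp apart).

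**Figure D4:**
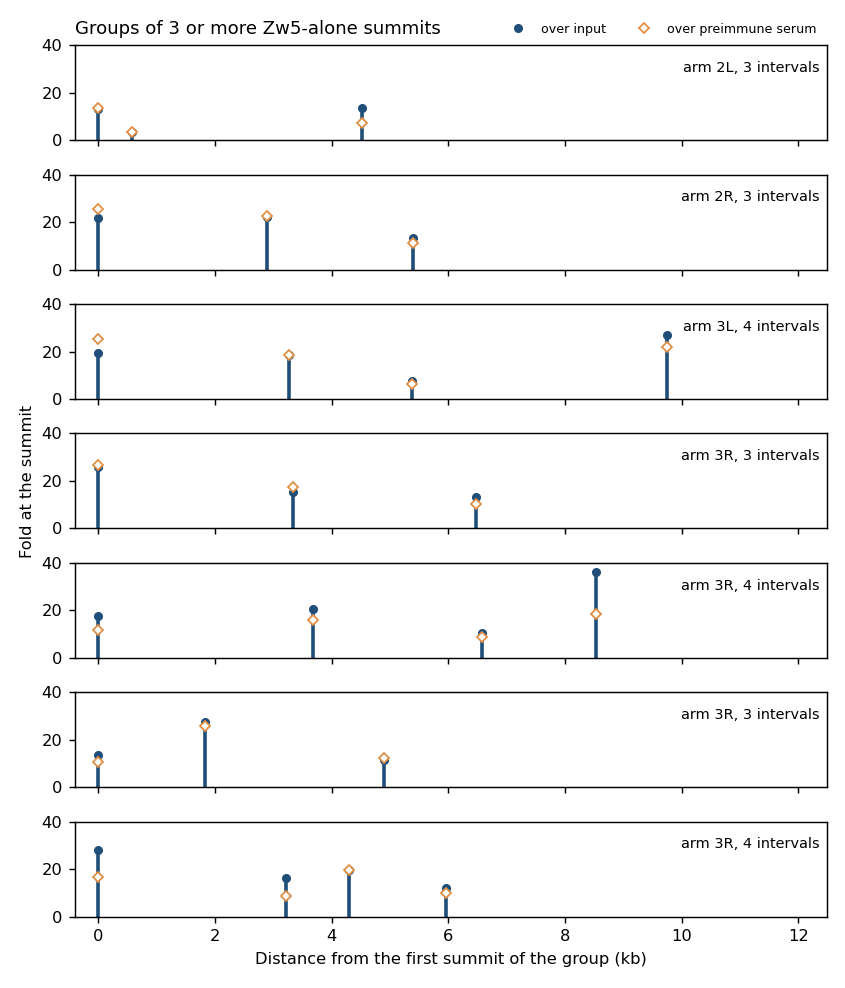
Fold at the summit (vertical axis) against distance from the first summit (horizontal axis, kb) for the 7 groups of 3 or more sites of Zw5 alone, 1 panel per group. Stems and filled points are folds over input, open diamonds folds over preimmune serum. A single stem, 3.50-fold on 2L, is under 5-fold, and the other 23 are at 7.55-fold or more.

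Across the arms the sites numbered 51 on 2L, 38 on 2R, 58 on 3L and 76 on 3R. Counted up to the highest coordinate in any list, that was 2.24, 1.90, 2.42 and 2.73 per Mb. The share of Zw5 intervals held by Zw5 alone was similar, at 37.8% (30.0 to 46.2), 35.8% (27.4 to 45.3), 43.6% (35.5 to 52.1) and 40.9% (34.1 to 48.0). Arms differed more in the mix of high and low sites. Under 5-fold were 9 of 51 on 2L (17.6%, 9.57 to 30.3) and 15 of 76 on 3R (19.7%, 12.3 to 30.0), but 15 of 38 on 2R (39.5%, 25.6 to 55.3) and 20 of 58 on 3L (34.5%, 23.6 to 47.3). The median fold was 21.6 on 2L, 18.7 on 3R, 11.6 on 2R and 8.11 on 3L. It was lowest on 3L, although the share under 5-fold was largest on 2R.

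On X, which the set leaves out, a smaller part of the Zw5-alone intervals was high. There 24 of 80 Zw5 intervals (30.0%, 21.1 to 40.8) were held by Zw5 alone, with a median fold over input of 3.95 against 17.7 on the 4 autosomal arms. Of the 24, 7 reached 10-fold (29.2%, 14.9 to 49.2), where 143 of 223 autosomal sites did. Among the 56 shared intervals on X 1 did (1.79%, 0.316 to 9.45), so on X too most of the high intervals were of Zw5 alone. In the preimmune list were 15 of the 24 (62.5%, 42.7 to 78.8). The highest X site still reached 36.2-fold, so the range was alike and the proportion of low sites was not. Shared Zw5 intervals had nearly the same median on X, 3.93, as on the autosomes, 4.06.

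Along the arms the sites were uneven. On 2L, the 1 Mb window starting at 12000001 held 13 of the 51 sites, between 12002813 and 12708104, with folds from 2.74 to 31.4 and 12 of them called against both controls. These were 13 of the 18 Zw5 intervals of that window. A stretch of 3.40 Mb on the same arm, from the summit at 15272501 to that at 18677204, held none, although 9 shared Zw5 intervals, 52 Pita and 6 ZIPIC intervals had their summits there. On 3R the window starting at 4000001 held 9 sites, all at 10.4-fold or more and 7 of them in the groups of 3 and 4 described above. The longest empty stretch on 3R was 2.28 Mb, with 12 shared Zw5 intervals in it, and on 2R it was 3.28 Mb, with 9. On 3L the longest was 1.26 Mb and no window held more than 5 sites.

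Distances to the other proteins varied widely, and not overlapping them is part of the rule. The nearest Pita or ZIPIC interval was a median of 14575 bp away, with quartiles of 6106 and 32492 bp. For Pita the median distance was 23030 bp and for ZIPIC 62944 bp, in lists of 1845 and 575 intervals. Within 5 kb of 51 sites (22.9%, 17.8 to 28.8) there was a Pita or ZIPIC interval, and within 1 kb of 12 (5.38%, 3.10 to 9.17). Of the 51 sites called against input alone 15 had one within 5 kb (29.4%, 18.7 to 43.0), and of the 172 called against both 36 did (20.9%, 15.5 to 27.6), shares whose intervals overlap. A shared Zw5 interval was that near for 26 sites (11.7%, 8.08 to 16.5).

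**Figure D5:**
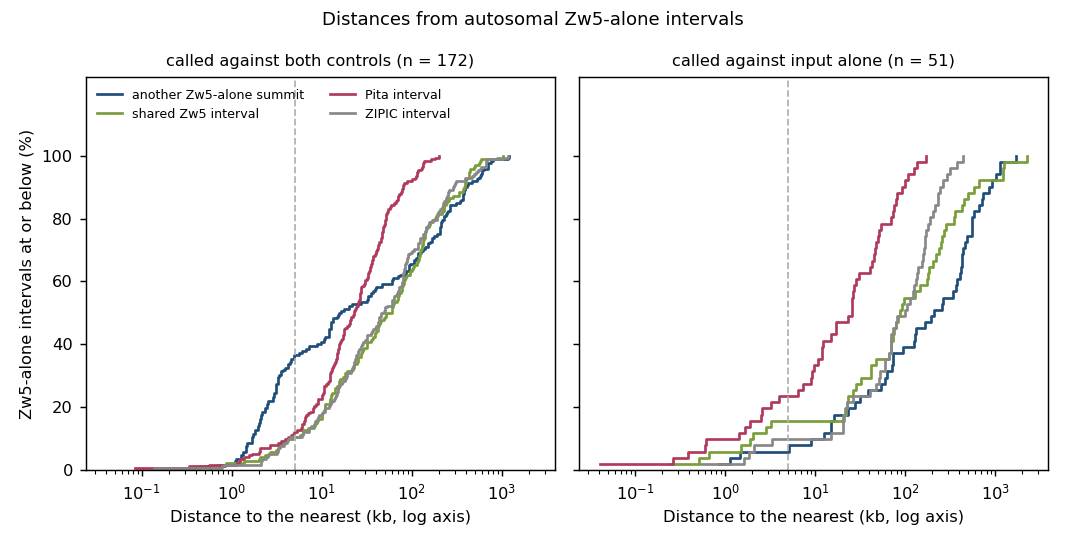
Cumulative share of sites of Zw5 alone (vertical axis, percent) by distance to the nearest other such summit, shared Zw5 interval, Pita interval and ZIPIC interval (horizontal, log axis, kb), for sites called against both controls on the left and against input alone on the right. The dashed line marks 5 kb. At 5 kb the curve for another Zw5-alone summit stands at 36.6% on the left and 5.88% on the right.

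The number of sites depended on how overlap was defined. It was 239 when at least 50% of the Zw5 interval had to be overlapped, and 260 when another summit within 100 bp was required. Nearest to another protein among the chosen sites were 2R 19956041 to 19956336 (2.56-fold, 41 bp from Pita), 3R 10401438 to 10401881 (7.90-fold, 84 bp from Pita) and 3L 17008948 to 17009369 (6.80-fold, 138 bp from ZIPIC). They were followed by 2R 11002986 to 11003247 (2.29-fold) and 2L 5010485 to 5011634 (23.3-fold), which lay 266 and 337 bp from Pita. Just outside were 2R 8323213 to 8324054 (26.3-fold, sharing 96 bases with Pita), 3L 4219319 to 4219614 (4.42-fold, 152 bases with ZIPIC) and 3R 12866320 to 12866606 (2.66-fold, 170 bases with ZIPIC). Next were 2R 4982449 to 4982803 (4.37-fold, 203 bases) and 2L 21757340 to 21757657 (2.83-fold, 205 bases), both overlapping Pita.

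The preimmune lists of Pita and ZIPIC come from the same precipitates as the lists that chose the sites, so overlaps with them are given as a description only. A Pita preimmune-list interval overlapped 1 of the 223 sites (0.448%, 0.0792 to 2.50), 2R 2810666 to 2810983, the site with the raised input background named above, and 210 of all 560 autosomal Zw5 intervals (37.5%). ZIPIC preimmune-list intervals overlapped 136 of the 560 (24.3%) and 0 of the 223, which allows a share of up to 1.35% taken as 3 counts of the total and 1.69% as the Wilson upper bound. Zw5 summits at 2R 2810666 to 2810983 and at 3R 11171624 to 11172205 both moved by 34 bp between the Zw5 calls, the largest shift among the 172 sites called against both controls.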

How the data were processed

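Per the submitters' processing notes, reads were handled with cutadapt and Bowtie, and peaks were called with MACS2 2.1.0.20140616 on the dm3 build. For arguments, duplicate handling and thresholds, nothing is stated in the labels read here. The authors deposited 6 narrowPeak lists, 1 per protein and control, called per library. The ratio in the deposited files is the fold at the summit over the control's local background, with −log10 p and −log10 q per peak. The score column of the deposited lists equals −log10 q times 10 without its decimals in 100% of peaks and was not used further.

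Coordinates are dm3, counted from 1. Overlap means 1 bp or more. Pileup and background were solved from fold and p (Poisson upper tail), and came out within 0.05 of a whole fragment in 100% of the 3 input lists. For the Zw5 preimmune list, where the plain solution was whole in 8.45%, p was taken from the scaled pileup cut to a whole number. All 282 intervals with 1 solution, which include the 165 that set the factor, were then whole after division by 0.525. The solvers and overlaps were tested on simulated data. Intervals on shares are Wilson 95%. Named sites are the 10 highest over input, the 5 highest over preimmune serum, the highest per arm, the extremes of each call, the groups with most summits (all 7, since the groups of 3 tie) and the 5 nearest either side of the rule. The 5 lowest called against both controls, the widest site and the examples among pairs and 1 Mb windows were added after values were seen. The sites and choices were made with earlier results of these data known. Gene lists and sequence features planned for a dm3 annotation were not used here, since the reference given is of another build. Python 3.11.15, numpy 2.4.6, pandas 2.3.3, scipy 1.17.1, mpmath 1.4.1 and matplotlib 3.10.9 were used.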

Additional observations from a re-analysis of the deposited data

How the results depend on the processing

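Of 36 recomputed values, 28 stayed within the main value's 95% interval (counts: within 1.5 times). The number of sites ran from 164 to 260. When only another summit within 100 bp removed a Zw5 interval, 46.4% of autosomal Zw5 intervals were alone. With Zw5 intervals called against both controls the share was 57.5% and the median fold over input 21.8. With Zw5 intervals of 5-fold or more it was 60.7%, the median fold 22.2, and 99.4% were also in the preimmune list. Both settings leave out low intervals, and the preimmune share has no value where the call against both controls is required. The share of summits with another nearby, 29.6% within 5 kb, was 13.0% within 2 kb and 43.5% within 20 kb, distances chosen after seeing the data. No paired analysis was possible because each protein has 1 library. The lowest listed pileups were 27 for Zw5, 24 for Pita and 8 for ZIPIC.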

Other observations

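The high autosomal Zw5 intervals that were shared make up a short list. At 15-fold or more over input there were 20, of which 13 overlapped Pita, 6 ZIPIC and 1 both, beside 123 of Zw5 alone. The highest were 3L 5145263 to 5146119 (34.4-fold, with Pita), 3L 11057525 to 11058540 (31.9, with Pita), 2R 4980145 to 4980951 (31.8, with ZIPIC) and 2R 3452903 to 3454715 (30.3, with ZIPIC). The first of them follows a group of 4 sites of Zw5 alone, and the second lies 1371 bp from the widest such site, 3L 11054052 to 11056153. Outside the large arms, on chromosome 4 and on heterochromatic and unplaced sequence, 5 of 55 Zw5 intervals were held by Zw5 alone. All 5 were under 5-fold, from 2.23 to 3.63, and none was in the Zw5 preimmune list. Of the other 50 Zw5 intervals there, 41 were under 5-fold (82.0%, 69.2 to 90.2) and 4 were in the preimmune list (8.00%, 3.15 to 18.8).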
